A study of Mus musculus with 6 samples.

Results

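The genes described here make the folding machinery of the endoplasmic reticulum (ER) lumen: chaperones that bind unfolded chains, enzymes that make and rearrange disulfide bonds, prolyl isomerases, and their helpers. They were chosen by name, as the rows of the deposited count table that carry 40 symbols, and all 40 were found among the 21652 genes listed, each as 1 row. Counts are ribosome footprints, the short mRNA fragments that a ribosome shields from nuclease, so a gene's count depends on its mRNA level and on how densely ribosomes occupy that mRNA. RNA-seq of these cells was not used here, so the 2 could not be told apart. Footprints came from 6 libraries of MIN6, a mouse beta-cell tumour line that secretes insulin: 3 carried sgNT, taken here as a non-targeting CRISPR guide, and 3 carried sgLTN1, a guide against Ltn1, the ubiquitin ligase Listerin that tags unfinished chains on stalled ribosomes. No drug, time course or second genotype entered the comparison, and the labels give 1 batch for all libraries. Whether the edited cells were a clone or a pool, and whether libraries of a group were grown as separate cultures, is not given in the labels, so a p-value here reflects only how these libraries spread, which may be technical.

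Secretory and membrane proteins enter the ER as unfolded chains. BiP, the product of Hspa5, holds them in cycles of ATP hydrolysis that J-domain proteins start and exchange factors end, while calnexin and calreticulin hold chains through trimmed N-glycans and the protein disulfide isomerases pair their cysteines with oxidising power from the Ero1 flavoenzymes. A beta cell depends on this machinery because proinsulin needs its disulfide bonds before it can leave the ER. When unfolded chains accumulate, the sensors IRE1, PERK and ATF6 start the unfolded protein response, which raises transcription of many of the genes described here.

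The libraries held between 4373467 and 11198735 counts. Footprints on Ltn1, the targeted gene, read 143, 145 and 141 CPM in sgNT and 65.3, 71.5 and 64.9 CPM in sgLTN1, where CPM are counts scaled to library size with TMM factors and values of a group stand in the order of libraries 1 to 3. On the log2 scale the difference was -1.09 (SE 0.07), adjusted p = 9.24e-05 (edgeR, quasi-likelihood F-test, Benjamini-Hochberg over all tested genes). The 14 beta-cell markers checked, insulin genes among them, were all present and summed to between 154640 and 168455 CPM in sgNT and between 160460 and 180478 CPM in sgLTN1. Markers of cells outside the islet were scarce. In any library 6 acinar genes summed to at most 5.76 CPM, 3 duct genes to at most 1.4 CPM and 4 genes of stroma and vessel to at most 10.1 CPM. The 3 immune genes summed to at most 35.3 CPM, most of it Cd68 at 24.9 to 34.8 CPM. The 5 genes of the other islet cells were not scarce, with at most 661 CPM, most of it Gcg at 532 to 601 CPM. No marker was at 0 counts in all libraries. Fewer cells of a type and less RNA per cell cannot be told apart in such bulk libraries.

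Most of the ER folding genes had slightly more footprints in sgLTN1 than in sgNT, none of them past the threshold. Of the 40 genes, 39 had enough counts to be tested, with between 126 and 79421 counts in a library. The exception was Fkbp10, a collagen-directed prolyl isomerase, with 1 to 7 counts per library. Of the 39 genes, 38 had a log2 fold change above 0, against 47.3% of all 12782 tested genes, and the median was 0.14, about 9.96% more footprints, against -0.02 over all tested genes. At an adjusted p of 0.05 edgeR called 0 of the 39, against 0.18% of all tested genes in either direction and 0.0861% with higher values in sgLTN1, and the lowest adjusted p was 0.0995. An unadjusted p below 0.05 was reached by 18 of the 39, all with higher values in sgLTN1, where 8% of all tested genes did so in that direction and 15.6% in either. In 15 of the 39 every sgLTN1 library lay above every sgNT library, against 10.1% of all tested genes (20.2% in either direction), and in 0 of them every sgLTN1 library lay below. DESeq2's test, as an alternative, called 4 of them: P4hb, Ero1a, Fkbp11 and Sil1. The authors' deposited table, also from DESeq2, gives an adjusted p for 37 of the 40. Its values for these genes are those of the DESeq2 alternative, so the same 4 called higher there are not a second source. Of the 2697 genes with an adjusted p there, 6.79% were called higher (8.42% in either direction).

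**Figure D1:**
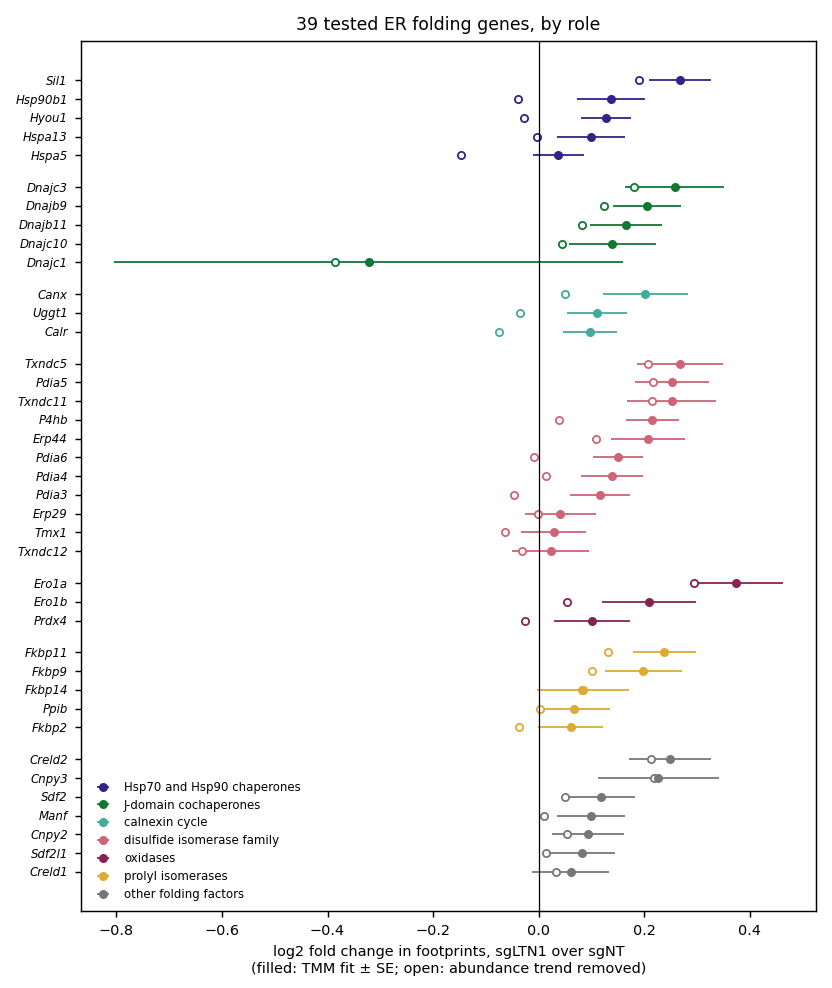
Log2 fold change in footprints (sgLTN1 over sgNT; x axis) for the 39 tested ER folding genes, one row per gene and coloured by role; filled points are the TMM-scaled fit with its SE (n = 3 libraries per group) and open points the fit with the abundance trend removed. The filled points lie above 0 for 38 genes and below 0 for Dnajc1, while 25 of the open points lie above 0.

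How far the genes stood above 0 depended on how the libraries were scaled against abundance. In these libraries log2 fold changes drift upward with abundance, and the ER folding genes have many counts: their median level, not divided by gene length, was 8.43 on the log2 CPM scale, against 3.79 for all tested genes. With that drift removed by a smooth curve in each library, 25 of the 39 stayed above 0 (49.4% of all tested genes did) and the median was 0.04, about 2.69% more footprints. An unadjusted p below 0.05 then went to 8 genes with higher values, against 7.07% of all tested genes, namely Ero1a, Sil1, Pdia5, Creld2, Txndc5, Txndc11, Dnajb9 and Dnajc3, and to 2 genes with lower values, Hspa5 and Calr. Scaling by total counts left 31 of the 39 above 0 with a median of 0.06, beside a median of -0.09 over all tested genes.

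**Figure D2:**
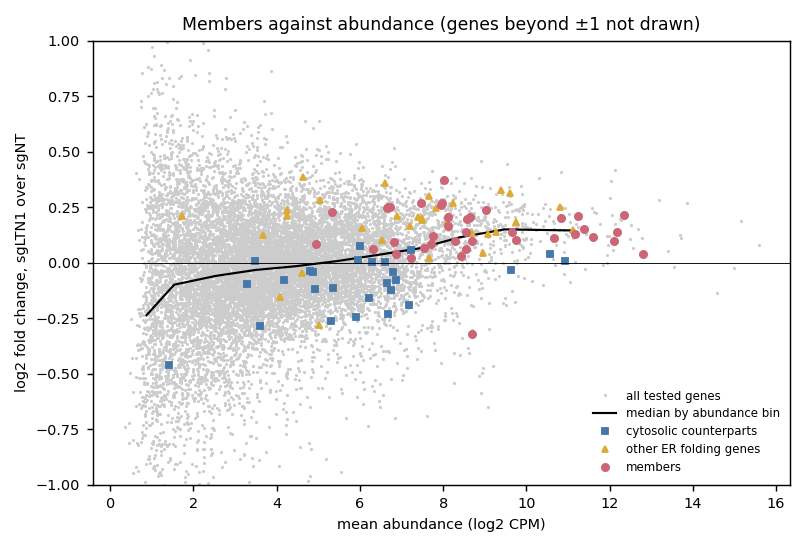
Log2 fold change (sgLTN1 over sgNT; y axis) against mean abundance in log2 CPM (x axis) for all tested genes in grey, the 39 tested ER folding genes in red, other ER folding genes in yellow and cytosolic counterparts in blue; the black line joins medians of abundance bins. The red points lie mainly at high abundance, around a median of 8.43, where the line itself is above 0.

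The shift was not even across libraries. In sum, the 40 genes held 42421, 42032 and 40072 CPM in sgNT libraries 1 to 3 and 45583, 47006 and 43589 CPM in sgLTN1 libraries 1 to 3. That is 41508 ± 1259 CPM in sgNT and 45393 ± 1717 CPM in sgLTN1 (mean ± SD, n = 3), and the groups did not overlap. As a share of all counts the sums were 4.24% ± 0.105 and 4.41% ± 0.141, and here sgNT library 2 at 4.35% lay above sgLTN1 library 3 at 4.25%. The median member differed from the control mean by 0.02, 0.04 and -0.05 (log2) in sgNT libraries 1 to 3 and by 0.15, 0.20 and 0.07 in sgLTN1 libraries 1 to 3. Depth differed as well, with 4373467, 7802364 and 4479680 counts in sgNT libraries 1 to 3. The sgLTN1 libraries 1 to 3 held 11198735, 9683201 and 4993245 counts. The deepest libraries, sgLTN1 libraries 1 and 2, also had the largest median differences, and the part of depth in the shift was not tested. Within its group, sgLTN1 library 3 had the lowest value for 29 of the 39 genes and sgNT library 3 for 26, and sgLTN1 library 2 had the highest value of all 6 libraries for 25. Leaving out sgLTN1 library 3 raised the median to 0.16 and brought 3 higher genes past the threshold (Ero1a, Dnajc3 and Sil1) together with Dnajc1 as lower, where 2.47% of all tested genes were called. Without sgLTN1 library 2 the median was 0.12 and 10 genes had an unadjusted p below 0.05 with higher values, as did 5.17% of all tested genes. Without sgLTN1 library 1 the median was 0.12 and 11 genes did, as did 5.41% of all tested genes. In these fits 0 of the 39 passed the threshold, against 0.0317% and 0.0476% of all tested genes.

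**Figure D3:**
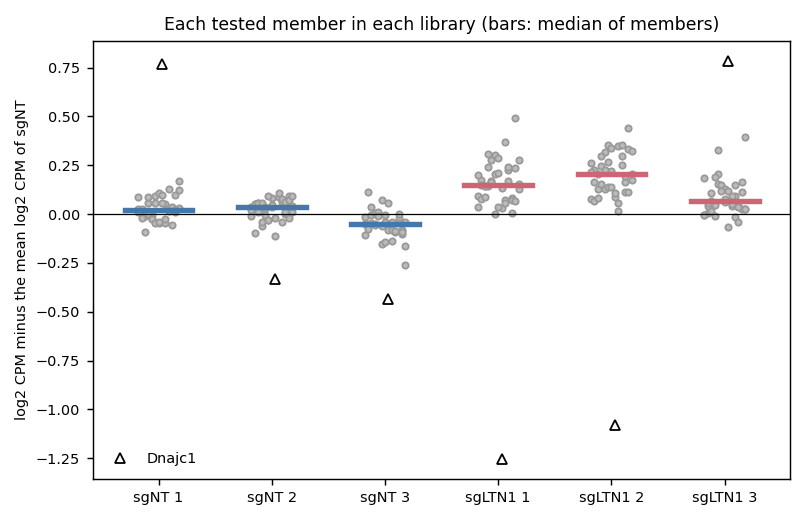
Difference of each tested ER folding gene from its mean in sgNT (log2 CPM; y axis) in each of the 6 libraries (x axis); grey points are genes, triangles are Dnajc1, and the coloured bars are the median over the 39 genes. The bars are between -0.05 and 0.04 in sgNT and between 0.07 and 0.20 in sgLTN1, and Dnajc1 lies far from the others in every library.

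Part of the group shares a promoter sequence. That sequence is known from chaperone promoters, so its share among these genes is a description and not independent support. The ER stress element, the site through which ATF6 and NF-Y act at chaperone promoters, is spelled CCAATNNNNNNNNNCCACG. It was searched on both strands in RefSeq promoter windows (GRCm38.p6), which run from 250 bases before to 50 bases after a gene's start. Windows were found for 34 of the 40 genes, and 8 of the 34 (23.5%) held the full element, against 37 of all 27025 genes with a window (0.137%). The separate ends of the element are common: CCAAT lay in 25 of the 34 and in 41.1% of all genes, CCACG in 27 of the 34 and in 35.5% of all genes. Each full match contains both ends. The 9 matches lie in those 8 genes and are sequence only, as binding was not tested. In Calr, Creld2, Ero1b and the second site of Hsp90b1 the element reads on the opposite strand. All are printed 5′ to 3′ on the gene's own strand, with the element in capitals and 15 bases on each side:
Hspa5 (chr2:34772010-34772058, plus strand): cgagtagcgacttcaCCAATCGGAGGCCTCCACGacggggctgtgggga
Hsp90b1 (chr10:86705623-86705671, minus strand): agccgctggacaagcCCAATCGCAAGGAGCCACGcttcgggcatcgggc
Hsp90b1 (chr10:86705518-86705566, minus strand): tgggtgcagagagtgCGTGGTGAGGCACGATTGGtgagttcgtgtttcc
Calr (chr8:84847060-84847108, minus strand): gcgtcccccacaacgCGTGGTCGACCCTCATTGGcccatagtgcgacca
Canx (chr11:50325785-50325833, minus strand): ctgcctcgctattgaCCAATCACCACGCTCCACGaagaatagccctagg
Dnajc3 (chr14:118937812-118937860, plus strand): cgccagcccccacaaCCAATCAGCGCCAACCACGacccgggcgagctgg
Pdia6 (chr12:17266476-17266524, plus strand): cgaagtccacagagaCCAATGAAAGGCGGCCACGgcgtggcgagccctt
Ero1b (chr13:12565667-12565715, plus strand): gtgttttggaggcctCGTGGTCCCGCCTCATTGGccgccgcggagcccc
Creld2 (chr15:88819505-88819553, plus strand): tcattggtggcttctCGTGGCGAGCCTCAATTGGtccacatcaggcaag
The elements begin 65 bases upstream of the start in Hspa5, 98 in Pdia6, 105 in Dnajc3, 107 and 212 in Hsp90b1, 126 in Creld2, 145 in Canx, 162 in Calr and 201 in Ero1b.

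The 8 genes with the element had log2 fold changes from 0.04 (Hspa5) to 0.26 (Dnajc3), with a median of 0.18, and all 8 were above 0. The 26 tested genes with a window and no full element had a median of 0.13, with 25 above 0. With the abundance drift removed the medians were 0.02 and 0.05, with 4 of the 8 and 19 of the 26 above 0. The difference between the sets was not tested. Of the other genes with the element in the genome, 9 were tested. Among them the ubiquitin ligase gene Syvn1 was at 0.25 and the ER degradation gene Derl3 at 0.35, the median was -0.11 and 3 of the 9 were above 0. The UPRE core, TGACGTGG, a sequence bound by spliced XBP1, lay in windows of 2 of the 34 genes and of 0.714% of all genes. Those are 2 thioredoxin-domain genes, and their windows read, with the core in capitals:
Txndc5 (chr13:38528030-38528067, minus strand): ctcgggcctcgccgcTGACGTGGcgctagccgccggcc
Txndc11 (chr16:11134612-11134649, minus strand): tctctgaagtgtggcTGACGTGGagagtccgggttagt
Both had an unadjusted p below 0.05 with higher values in sgLTN1. So had 18 of all 39 tested ER folding genes, 7 of the 11 in the disulfide isomerase family and 8% of all tested genes. A link between the core and the footprints was not tested.

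Among the Hsp70 and Hsp90 chaperones and their exchange factors, all 5 genes were above 0, with a median of 0.13, and after removal of the abundance drift 1 of the 5 was, with a median of -0.03. Hspa5 (ENSMUSG00000026864.14), whose product BiP is the central Hsp70 of the ER, read 7111, 6951 and 6910.4 CPM in sgNT and 7169.7, 7377 and 6974 CPM in sgLTN1. The groups overlapped, and the sgLTN1 value was 2.62% higher, log2 fold change 0.04 (SE 0.05), edgeR adjusted p = 0.767. Hsp90b1 (ENSMUSG00000020048.14), which encodes the ER Hsp90 known as GRP94, read 4463, 4584 and 4244 CPM in sgNT and 4996, 5171 and 4447 CPM in sgLTN1, with sgNT library 2 above sgLTN1 library 3 and a log2 fold change of 0.14 (SE 0.06), adjusted p = 0.336. With the drift removed Hspa5 was at -0.15 (SE 0.03, adjusted p = 0.116) and Hsp90b1 at -0.04.

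The exchange factors release ADP from BiP. Sil1 (ENSMUSG00000024357.11) had the smallest p of all the ER folding genes and read 223, 230.3 and 227 CPM in sgNT and 274, 282 and 262 CPM in sgLTN1. The lowest sgLTN1 library stood clear of the highest sgNT library, and the log2 fold change was 0.27 (SE 0.06), or 20.4% more footprints, with adjusted p = 0.0995. Its value stayed above 0 in all 14 alternatives, from 0.19 with the drift removed to 0.30 without sgNT library 1 and sgLTN1 library 3, and its adjusted p ran from 0.0143 to 0.435. Hyou1 (ENSMUSG00000032115.15), a large Hsp70 that serves as the other exchange factor, read 2182, 2215 and 2190.3 CPM in sgNT and 2429, 2401 and 2365 CPM in sgLTN1, a small step without overlap at 0.13 (SE 0.05), adjusted p = 0.234. Hspa13, a microsomal Hsp70-like ATPase, averaged 401 ± 16.0 CPM in sgNT and 429 ± 26.2 CPM in sgLTN1 (SD, n = 3), with overlapping groups.

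J-domain proteins deliver substrates to BiP and trigger its ATPase. Leaving Dnajc1 for later, the other 4 were above 0. Dnajb9 (ENSMUSG00000014905.5, ERdj4), which also represses the sensor IRE1, read 273, 251 and 246 CPM in sgNT and 295, 308 and 283 CPM in sgLTN1, without overlap, at 0.21 (SE 0.07), adjusted p = 0.181. Dnajc3 (ENSMUSG00000022136.9, p58IPK) read 233, 238 and 204 CPM in sgNT and 289.5, 285 and 231 CPM in sgLTN1, at 0.26 (SE 0.09), adjusted p = 0.221. Here sgLTN1 library 3 fell inside the sgNT range and the other sgLTN1 libraries lay well above it. Dnajb11 (ENSMUSG00000004460.18, ERdj3), a cochaperone that binds unfolded chains itself, read 252, 276 and 253 CPM in sgNT and 302, 303 and 272 CPM in sgLTN1, with sgLTN1 library 3 just below sgNT library 2, at 0.17 (SE 0.07), adjusted p = 0.274. Dnajc10 (ENSMUSG00000027006.14, ERdj5), a reductase that opens disulfides before degradation, read 388, 345 and 334 CPM in sgNT and 399.6, 423 and 351 CPM in sgLTN1, with overlap and 0.14 (SE 0.08).

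In the calnexin cycle all 3 genes were above 0. Calr (ENSMUSG00000003814.9), the soluble lectin calreticulin, read 4324, 4251 and 4194 CPM in sgNT and 4499.7, 4772 and 4385 CPM in sgLTN1. The groups did not overlap, yet the step was small, 0.10 (SE 0.05), adjusted p = 0.401, and it changed sign to -0.08 with the drift removed. Canx (ENSMUSG00000020368.16), the membrane-bound lectin calnexin, read 1706, 1807 and 1581 CPM in sgNT and 1997, 2136 and 1726 CPM in sgLTN1, with sgLTN1 library 3 inside the sgNT range, at 0.20 (SE 0.08), adjusted p = 0.258. Uggt1, the glucosyltransferase that returns unfolded glycoproteins to these lectins, averaged 1554 ± 38.5 CPM in sgNT and 1677 ± 86.8 CPM in sgLTN1 (SD, n = 3), with overlap and a log2 fold change of 0.11 (SE 0.06).

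The disulfide isomerase family held 7 of the 15 genes without overlap, out of 11 in the family, where 10.1% of all tested genes were higher without overlap. Of the 11, 7 had an unadjusted p below 0.05 with higher values, as had 8% of all tested genes. The family had a median of 0.15 that became 0.01 with the drift removed. P4hb (ENSMUSG00000025130.12), which encodes protein disulfide isomerase itself, read 4889.8, 4972 and 4688 CPM in sgNT and 5563, 5819 and 5506 CPM in sgLTN1. Every sgLTN1 library exceeded every sgNT library, and the log2 fold change was 0.21 (SE 0.05), or 16.1% more footprints, with adjusted p = 0.117. The authors' deposited table gives 0.24 (SE 0.07) with adjusted p = 0.019. With the drift removed P4hb was at 0.04 (adjusted p = 0.68), the largest p among its 14 alternatives, which ran from 0.0162. Pdia6 (ENSMUSG00000020571.14), an isomerase that binds BiP clients and attenuates IRE1, read 2543, 2545 and 2573 CPM in sgNT and 2876, 2791 and 2836 CPM in sgLTN1, without overlap and with the smallest SE of the 39 genes, at 0.15 (SE 0.05), adjusted p = 0.181. Pdia3 (ENSMUSG00000027248.14, ERp57), the partner of the calnexin-cycle lectins, read 3035, 3081 and 2823 CPM in sgNT and 3297, 3331 and 3062 CPM in sgLTN1, with overlap and 0.12 (SE 0.06).

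Pdia4 (ENSMUSG00000025823.10, ERp72) read 762, 798 and 742 CPM in sgNT and 848, 883 and 803 CPM in sgLTN1, with a gap of a few CPM between groups, at 0.14 (SE 0.06), adjusted p = 0.288. Pdia5 (ENSMUSG00000022844.9), an isomerase with a part in ATF6 activation, read 98.6, 90.1 and 89.5 CPM in sgNT and 115, 110.0 and 106 CPM in sgLTN1, without overlap, at 0.25 (SE 0.07), adjusted p = 0.151. Txndc5 (ENSMUSG00000038991.18, ERp46), which passes oxidation from peroxiredoxin 4 to client proteins, read 165, 169 and 142 CPM in sgNT and 195, 202 and 176 CPM in sgLTN1, without overlap, at 0.27 (SE 0.08), adjusted p = 0.17. With the drift removed Pdia5 was at 0.22 and Txndc5 at 0.21. Txndc11 (ENSMUSG00000022498.17), a membrane-bound thioredoxin-domain protein, read 104, 98.8 and 87.2 CPM in sgNT and 117, 122 and 105 CPM in sgLTN1, at 0.25 (SE 0.08), adjusted p = 0.196. Erp44 (ENSMUSG00000028343.11), which retrieves the Ero1 oxidases and other clients from the early Golgi, read 381, 389 and 349.7 CPM in sgNT and 436, 458 and 398 CPM in sgLTN1, without overlap, at 0.21 (SE 0.07), adjusted p = 0.198. The other 3 differed little: Txndc12 was at 0.02 (SE 0.07), Erp29, a family member without an active-site cysteine pair, at 0.04 (SE 0.07), and the membrane-bound Tmx1 at 0.03 (SE 0.06), all with overlapping groups.

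**Figure D4:**
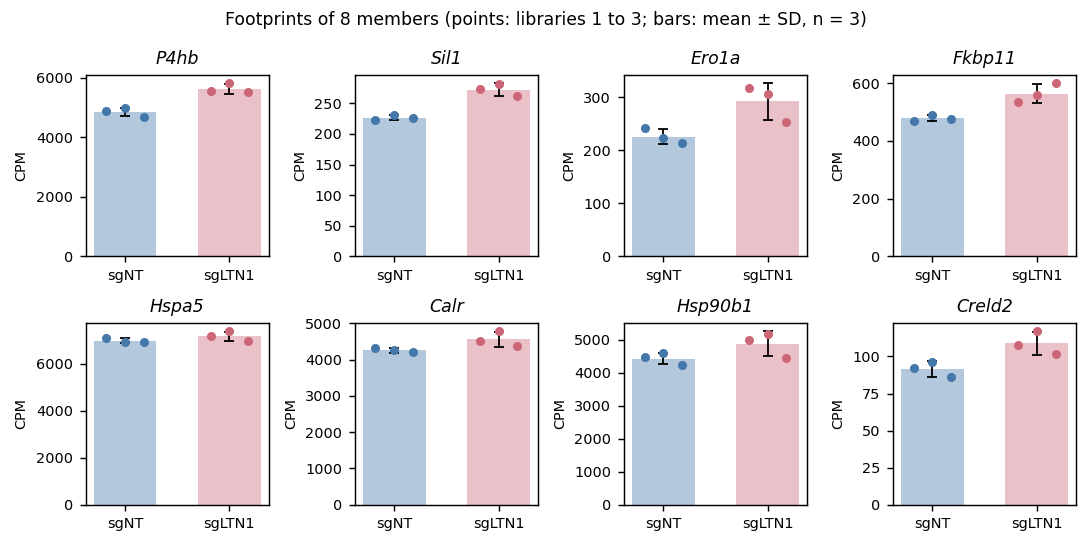
Footprints in CPM (y axis, from 0) of 8 ER folding genes in sgNT and sgLTN1; points are libraries 1 to 3 from left to right, bars the mean and error bars the SD (n = 3). P4hb, Sil1, Ero1a, Fkbp11, Calr and Creld2 have every sgLTN1 point above every sgNT point, and Hspa5 and Hsp90b1 overlap.

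The oxidases feed disulfide bonds into the isomerases. Ero1a (ENSMUSG00000021831.10) had the largest log2 fold change of the 39 genes and read 242, 223 and 213 CPM in sgNT and 317, 306 and 253 CPM in sgLTN1. All sgLTN1 libraries were above all sgNT libraries, library 3 by the least, and the log2 fold change was 0.37 (SE 0.09), or 29.6% more footprints, with adjusted p = 0.117. In its 14 alternatives the value ran from 0.29 to 0.54, and the adjusted p from 0.00652 with DESeq2 to 0.44 without sgLTN1 library 2. The authors' deposited table, where the DESeq2 values are the same, gives 0.40 (SE 0.10) with adjusted p = 0.00652. Ero1b (ENSMUSG00000057069.8), the paralogue enriched in pancreatic islets and needed for proinsulin oxidation, read 2424, 2296 and 1987 CPM in sgNT and 2700.3, 2784 and 2270.4 CPM in sgLTN1. Library 3 was the lowest of each group, the groups overlapped, and the log2 fold change was 0.21 (SE 0.09), adjusted p = 0.289. Prdx4 (ENSMUSG00000025289.16), a peroxiredoxin that turns hydrogen peroxide into disulfides, read 877, 836 and 764 CPM in sgNT and 879, 956 and 820.5 CPM in sgLTN1, with overlap and 0.10 (SE 0.07).

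Prolyl isomerases speed a slow step of folding. Fkbp11 (ENSMUSG00000003355.8) read 469.9, 489.6 and 474 CPM in sgNT and 535, 558 and 600.0 CPM in sgLTN1. It is 1 of 5 genes with the highest value of the group in sgLTN1 library 3, and the groups did not overlap, at 0.24 (SE 0.06), adjusted p = 0.126. Fkbp9 (ENSMUSG00000029781.8) read 352, 367 and 338 CPM in sgNT and 416, 433 and 363 CPM in sgLTN1, with sgLTN1 library 3 below sgNT library 2, at 0.20 (SE 0.07), adjusted p = 0.227. The remaining 3 were at 0.08 (SE 0.09) for Fkbp14, 0.07 (SE 0.07) for Ppib, which encodes cyclophilin B, and 0.06 (SE 0.06) for Fkbp2, with overlapping groups.

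Of the 7 other folding factors, all were above 0 with the drift in place and with it removed, with medians of 0.10 and 0.05. Creld2 (ENSMUSG00000023272.5), an ER stress-inducible EGF-domain protein, read 92.4, 96.4 and 86.1 CPM in sgNT and 108, 117 and 102 CPM in sgLTN1, without overlap, at 0.25 (SE 0.08), adjusted p = 0.176. Sdf2 (ENSMUSG00000002064.11), a partner of the ERdj3 cochaperone, read 219.8, 203 and 194 CPM in sgNT and 225, 221 and 223 CPM in sgLTN1, without overlap, at 0.12 (SE 0.06), adjusted p = 0.414. Manf (ENSMUSG00000032575.17), a BiP cofactor that is induced by ER stress and secreted, read 291, 315 and 302 CPM in sgNT and 318, 346 and 309.9 CPM in sgLTN1, with overlap and 0.10 (SE 0.06). Both Sdf2l1, the stress-inducible paralogue of Sdf2, at 0.08 (SE 0.06) and Creld1 at 0.06 (SE 0.07) lay close to 0, while Cnpy3, which encodes a chaperone of Toll-like receptors, was at 0.23 (SE 0.12) and Cnpy2 at 0.09 (SE 0.07).

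Ratios of 2 genes within a library need no library scaling, but they keep the abundance drift where the 2 genes differ in level. In all, 10 pairs were compared, and pairs of other genes were not, so no background share is given. The exact permutation test (two-sided, 20 ways to assign libraries to groups) cannot give a p under 0.1. The groups did not overlap for 5 pairs, each with exact p = 0.1 and an adjusted p of 0.2 over the 10 pairs. The log2 ratio of Ero1a to Ero1b was -3.33, -3.37 and -3.22 in sgNT and -3.09, -3.18 and -3.17 in sgLTN1, a difference of 0.16 in favour of Ero1a. For Creld2 over Creld1 the log2 ratio was 0.28, 0.21 and 0.23 in sgNT and 0.42, 0.54 and 0.30 in sgLTN1, a difference of 0.18. Fkbp11 over Fkbp2 gave 0.45, 0.36 and 0.34 in sgNT and 0.46, 0.52 and 0.70 in sgLTN1, a difference of 0.18. Hyou1 over Sil1, the 2 exchange factors, differed by -0.14 and Pdia4 over P4hb by -0.08. Within these pairs Sil1 and P4hb thus stood higher relative to their partners in sgLTN1, with the drift in place. With the drift removed, the log2 fold changes were -0.03 for Hyou1 and 0.19 for Sil1. For Pdia4 and P4hb they were 0.01 and 0.04, close together. Hspa5 over Hsp90b1 (-0.10) and Calr over Canx (-0.10) overlapped, with exact p = 0.2 and 0.3. The other 3 pairs, Sdf2l1 over Sdf2 (-0.04), Dnajb9 over Dnajb11 (0.04) and Pdia6 over Pdia3 (0.03), also overlapped, with exact p of at least 0.6.

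Genes with related work were read from the same test. Of 37 listed genes of ER folding outside the 40, such as glucosidases, thioredoxin-related proteins and collagen-modifying enzymes, 31 were tested. None passed the threshold, 28 of the 31 were above 0 with a median of 0.19, 20 had an unadjusted p below 0.05 with higher values and 1 with lower values, and with the drift removed 25 of the 31 stayed above 0 with a median of 0.13. Prkcsh, the beta subunit of glucosidase II that admits glycoproteins to the calnexin cycle, was at 0.25 (SE 0.05), adjusted p = 0.0911, and the collagen prolyl hydroxylase subunit gene P4ha2 at 0.31 (SE 0.07), adjusted p = 0.0913. The list of cytosolic counterparts held Hsp70, Hsp90, their cochaperones, FK506-binding proteins, thioredoxin and peroxiredoxins. As a list it lay on the other side, with 18 of 26 below 0 and a median of -0.08. Its Hsp70 and Hsp90 genes themselves lay close to 0, from -0.03 for Hsp90aa1 to 0.06 for Hspa4. Of the 26, 0 passed the threshold, 0 had an unadjusted p below 0.05 with higher values and 3 with lower values. The lowest p were those of the J-domain gene Dnaja2, -0.25 (SE 0.07), and the prolyl isomerase gene Fkbp3, -0.26 (SE 0.09). Their median abundance was lower, 6.11 on the log2 CPM scale, and with the drift removed 3 of the 26 were above 0 and the median was -0.12.

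Of 17 listed sensors and effectors of the unfolded protein response, 16 were tested, all but Atf3, with Ddit3 taken from the one of its 2 rows that holds more counts. None passed the threshold, 9 of the 16 were above 0 with a median of 0.06, and with the drift removed 8 were, with a median of 0.00066. Ern1, the gene of the sensor IRE1, was at 0.36 (SE 0.06), adjusted p = 0.0565, and Ppp1r15a, which encodes the phosphatase subunit GADD34 that reverses the PERK signal, at -0.60 (SE 0.17), adjusted p = 0.152. In all, 6 of the 16 had an unadjusted p below 0.05 with higher values and 1 with lower values.

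Dnajc1 (ENSMUSG00000026740.13), which encodes the ER-membrane J-domain protein ERdj1, had another pattern. It read 726, 338 and 315 CPM in sgNT and 179, 202 and 735 CPM in sgLTN1. The 2 high libraries, sgNT library 1 and sgLTN1 library 3, come from opposite groups and lie close together, while the lowest library was 4.11-fold below the highest. Its log2 fold change was therefore -0.32 (SE 0.48), with the largest SE of the 39 genes (the next was 0.12, for Cnpy3), and the sign turned in 2 of 14 alternatives. Next in spread was Cnpy3, with 1.58-fold between its highest and lowest library. The summed footprints of olfactory receptor genes, which serve odour detection in the nose, had the same 2 libraries on top: the 1194 genes summed to 893, 658 and 763 CPM in sgNT libraries 1 to 3 and to 518, 546 and 1011 CPM in sgLTN1 libraries 1 to 3. A few genes carried that order. Of the 50 receptor genes tested, 12 had those 2 libraries highest, as had 787 of all tested genes (6.16%). In 6 of the 12 the second highest library was at least 2-fold above the third. Without these 6 receptor genes the sums were 644, 571 and 677 CPM in sgNT and 480.4, 487 and 669 CPM in sgLTN1. There sgNT library 3 was highest. The part of these genes in the Dnajc1 count was not tested.

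**Figure D5:**
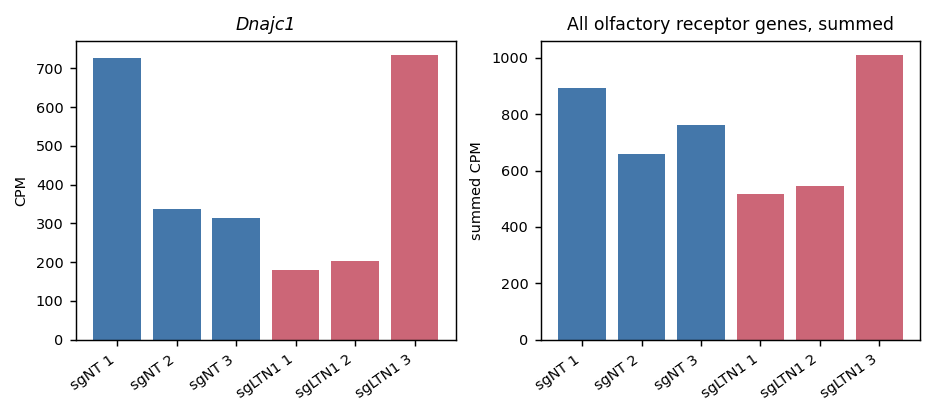
Footprints in CPM (y axis, from 0) of Dnajc1 (left) and of all 1194 olfactory receptor genes summed (right) in each of the 6 libraries, sgNT in blue and sgLTN1 in red. In both panels sgNT library 1 and sgLTN1 library 3 are the 2 highest and sgLTN1 library 1 is the lowest; without 6 of the receptor genes the sum is highest in sgNT library 3.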

How the data were processed

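Ribosome footprints of 6 MIN6 libraries were analysed, 3 with sgNT and 3 with sgLTN1. The authors deposited whole-number counts per gene, per the submitters' processing notes on GRCm39. The notes name STAR 2.7.11a and Bowtie2 2.5.4, featureCounts 2.12.3, fastp 0.23.4, SAMtools 1.9 and UMI-tools 1.1.2. For strand, length selection and multi-mapping no setting is given in the sources used here. The authors' deposited table holds, per the file headers, DESeq2 results (1.38.3 in the notes): a mean normalized signal, log2 fold change with SE, Wald score, p-value and adjusted p-value.

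The main test on counts was edgeR 4.0.16 in R 4.3.3 (filterByExpr, 12782 genes kept; TMM factors 0.954 to 1.04; quasi-likelihood test, group only; Benjamini-Hochberg over all tested genes, threshold 0.05) and DESeq2 1.42.0 as an alternative. SE is the log2 fold change over the square root of F. The abundance drift was removed with a loess curve (span 0.3) of each library's log2 CPM on the mean, used as an offset. Fits were tested on simulated data. Replicate pairs of the same group differed by more than sampling noise (chi-square per degree of freedom at least 2.55), so none was treated as a library deposited a second time; this does not show separate cultures.

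The members, lists and alternatives were chosen with earlier results of these data known. Named genes are all 40 members, with the value of each library for those with an unadjusted p below 0.05 and the 2 with most counts in each role (counts per coding length and protein features, which were planned, were not used here), and the 2 genes of smallest p in each related list. Beside these a few others are named, such as Ltn1 and some of the other genes with the ER stress element. Promoter windows come from RefSeq, GRCm38.p6.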

Additional observations from a re-analysis of the deposited data

How the results depend on the processing

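Over all genes the count past the threshold, 23 as reported, was 42 with total-count scaling, 227 with DESeq2's Wald test, 222 without the low-count filter and 250 when sgLTN1 library 3 and sgNT library 1 were both dropped (chosen after seeing the data), and from 4 to 333 with 1 library left out. As shares of the genes with an adjusted p, DESeq2 called 8.42%, the fit without the filter 1.06% and the fit without that pair 1.85%. With 1 library left out the share ran from 0.0317% to 2.47%. Of the ER folding genes, 4 were called by DESeq2, 1 without the filter (Ero1a), 2 without that pair of libraries (Ero1a, and Dnajc1 as lower, whose own values chose the pair), and from 0 to 4 with 1 library left out, the 4 being those without sgLTN1 library 3. Those with an unadjusted p below 0.05 numbered 9 with total-count scaling, 10 with the abundance drift removed and from 10 to 25 with 1 library left out. Of these 9, 8 and from 10 to 24 had higher values, and so did 3.5%, 7.07% and from 5.17% to 9.78% of all tested genes, against 8% as reported. Those above 0 numbered 25 with the drift removed. The median was 0.062 with total-count scaling, 0.038 with the drift removed, 0.20 without that pair and from 0.12 to 0.16 with 1 library left out. The share of higher among all calls was 11 of 23 as reported and 8 of 42 with total-count scaling. Removal of the drift turned the sign of Hspa5 (-0.15), Calr (-0.076), Tmx1 (-0.065), Pdia3 (-0.047), Uggt1 (-0.036), Hsp90b1 (-0.038), Fkbp2 (-0.037), Hyou1 (-0.028), Txndc12 (-0.032), Prdx4 (-0.026), Pdia6 (-0.0085), Hspa13 (-0.0024) and Erp29 (-0.00097). Total-count scaling turned Txndc12 (-0.053), Tmx1 (-0.047), Hspa5 (-0.038), Erp29 (-0.035), Creld1 (-0.015), Fkbp2 (-0.015) and Ppib (-0.0089). With 1 library left out, values that turned sign ran from -1.26 to 0.19 for Dnajc1, from -0.023 to 0.070 for Txndc12 (0.11 without the pair above) and from -0.0042 to 0.066 for Tmx1 (0.099 without the pair). The ratio differences ran from -0.0046 to 0.078 for Pdia6 over Pdia3, from -0.017 to 0.11 for Dnajb9 over Dnajb11 and from -0.11 to 0.0023 for Sdf2l1 over Sdf2. The causes of these moves were not tested.

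Over all tested genes, deviations of same-numbered libraries from their group means correlated weakly (r of -0.0483, 0.0665 and 0.0884). For libraries with different numbers r ran from -0.119 to 0.0953. The main test did not take the numbers as pairs, but these values do not show that they are not pairs. Of the 39 tested ER folding genes, 26 were lowest in library 3 within sgNT and 29 within sgLTN1. With the replicate number as a block, 609 genes (4.76% of all tested) passed the threshold, 406 of them with higher values. Of the ER folding genes 14 passed, all 14 with higher values. Levels per coding length and protein features were not run.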

Other observations

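Besides Dnajc1, 19 tested genes had its pattern, with sgNT library 1 and sgLTN1 library 3 highest and the second highest library at least 2-fold above the third. This search was set up after the values of Dnajc1 were seen. For any other pair of libraries at most 4 genes in all met the same condition. Among the 19 were 6 olfactory receptor genes, and Or10j2 read 33.5, 9.77 and 10.1 CPM in sgNT libraries 1 to 3 and 3.70, 3.91 and 40.9 CPM in sgLTN1 libraries 1 to 3. Without sgLTN1 library 3 the log2 fold change of Dnajc1 was -1.26 (edgeR adjusted p = 0.0409), and without sgNT library 1 it was 0.19 (adjusted p = 0.908).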
